A study of Mus musculus with 44 samples.

Results

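The genes described here encode the constitutive proteasome, its regulatory particle and its activators. Of 37 listed symbols of the families Psma, Psmb, Psmc, Psmd and Psme, 36 were measured on the array by at least 1 probe set (a group of short probes for 1 transcript) annotated to that symbol alone, out of 18193 genes measured in that way. The only probe set for Psme2 carries several symbols, so Psme2 was left out. The 36 genes are covered by 79 probe sets. The alpha ring has 17 of them for 7 genes, the beta ring 11 for 7 genes, the regulatory particle ATPases 12 for 6 genes, the other regulatory particle genes 29 for 13 genes, and the activators 10 for 3 genes.

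The cells were CH12.LX, an established mouse B cell lymphoma line. They were activated with lipopolysaccharide (LPS) of Salmonella typhosa and received either the vehicle, 0.01% DMSO, or 10 nM TCDD, a dioxin that binds the aryl hydrocarbon receptor. Vehicle cells and TCDD cells were harvested after 8, 12, 24, 36 and 48 h. Cells at 0 h are labelled untreated. Each of the 11 groups had 4 arrays, 44 in all, and each replicate number stands for a separate day of treatment and harvest. The description gives 4 or 2 wells of a plate per treatment, depending on the time. Since all groups come from 1 line, p-values stand for the variation among its cultures alone. LPS, DMSO and time in culture cannot be told apart in a comparison with untreated cells, and the 5 such comparisons share the untreated arrays. In RNA of whole cultures, a change in the share of cells expressing a gene and a change in RNA per cell cannot be told apart.

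The proteasome degrades proteins tagged with ubiquitin. Its 20S core is a barrel of outer alpha rings, which gate the entrance, and inner beta rings, which hold the proteolytic sites. The 19S regulatory particle binds ubiquitin chains, removes them, and unfolds the substrate with a ring of ATPases before feeding it to the core. Other activators can cap the core in place of the 19S particle. B cells that turn into antibody-secreting cells are known for a heavy load of newly made protein, and for marked sensitivity to proteasome inhibition.

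Levels are given as log2(quantile normalised signal + 16), on the lead probe set of each gene, the one with the highest mean over all arrays. Differences and their standard errors (SE) are on the same log2 scale, from 1 limma fit of all 44 arrays, and a gene is called when its Benjamini-Hochberg adjusted p over the 11969 genes above the filter on dim signals is under 0.05. All 36 members passed that filter. Their mean levels lay between 10.99 and 14.28, and all 36 exceeded the median of all genes tested, 9.07. The median SD between replicates was 0.09 for the members and 0.23 for all genes tested. The median distance between the lowest and the highest of a gene's 11 group means was 0.39 for the members and 0.75 for all genes tested, with the widest among the members, 1.15, at Psmc4. No comparison of levels was made between probe sets.

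The labelled cell type was checked against B cell markers. All 7 of the B cell markers measured passed the filter, among them Cd79b, whose group means lay between 11.65 and 13.08. Of the markers of other cells, 3 of 5 T cell, 3 of 5 myeloid, 3 of 4 fibroblast and 0 of 1 erythroid genes passed it. Pax5, of the B cell list, lay at the filter (5.99 to 6.79) and Ms4a1 ranged from 10.30 to 13.37. Cd3d, Cd4, Lyz2, Itgam and Dcn did not pass, while the group means of Cd8a lay between 8.62 and 9.38, those of Adgre1 between 7.31 and 9.21 and those of Csf1r between 7.65 and 10.64. Cyp1a1, the standard target of the aryl hydrocarbon receptor, was higher with TCDD by 5.21 ± 0.19 (SE) at 8 h, with a limma adjusted p of 1.7e-21. Replicate arrays correlated with r between 0.949 and 0.988. The log2 ratio of the 3' to the 5' probe set of the transferrin receptor control, which grows with RNA degradation, had a median of 1.19 and reached 3.04 on 1 untreated array and 2.85 on 1 vehicle 48 h array. These were untreated replicate 3 and vehicle 48 h replicate 2. Untreated replicate 4 and vehicle 12 h replicate 4 had ratios of 1.39 and 1.38, but the highest median signals of all arrays, 99.2 and 87.9. These 4 arrays were taken as standing apart. Counts are given without them where leaving them out moved the count by over 1.5 times, and for some others.

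Promoter stretches are shown for 5 chosen genes. Psmd6 and Psmd12 are regulatory particle genes that fell late, Psmd8 had the largest late rise, and Psmb5 and Psmb6 encode proteolytic subunits. Psmb5 was called in no comparison. Each line holds the 250 bases before the RefSeq gene start, 5′ to 3′ on the gene's strand, in build GRCm38.p6. Capitals mark matches to GGGCGG (the Sp1 box) or to TGACNNNGC (the core of the antioxidant response element, bound by the Nfe2l1 and Nfe2l2 factors with small Maf proteins) on either strand. Psmd6 lies at chr14:14120946-14121195 (minus strand), Psmd12 at chr11:107479278-107479527 (plus strand), Psmd8 at chr7:29180674-29180923 (minus strand), Psmb5 at chr14:54617996-54618245 (minus strand) and Psmb6 at chr11:70525107-70525356 (plus strand).
Psmd6: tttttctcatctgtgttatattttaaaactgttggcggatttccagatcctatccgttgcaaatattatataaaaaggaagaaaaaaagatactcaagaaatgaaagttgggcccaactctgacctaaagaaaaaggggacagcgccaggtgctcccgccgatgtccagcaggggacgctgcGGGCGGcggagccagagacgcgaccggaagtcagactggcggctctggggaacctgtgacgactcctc
Psmd12: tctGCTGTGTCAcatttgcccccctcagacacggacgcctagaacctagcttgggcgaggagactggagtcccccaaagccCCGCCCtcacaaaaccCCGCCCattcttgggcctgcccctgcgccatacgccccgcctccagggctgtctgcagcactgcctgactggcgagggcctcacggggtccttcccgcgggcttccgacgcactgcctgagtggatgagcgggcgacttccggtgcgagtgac
Psmd8: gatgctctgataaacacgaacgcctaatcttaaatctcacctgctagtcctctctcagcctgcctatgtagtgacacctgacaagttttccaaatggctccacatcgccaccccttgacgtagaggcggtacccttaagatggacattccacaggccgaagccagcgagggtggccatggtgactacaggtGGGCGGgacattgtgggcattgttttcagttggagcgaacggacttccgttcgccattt
Psmb5: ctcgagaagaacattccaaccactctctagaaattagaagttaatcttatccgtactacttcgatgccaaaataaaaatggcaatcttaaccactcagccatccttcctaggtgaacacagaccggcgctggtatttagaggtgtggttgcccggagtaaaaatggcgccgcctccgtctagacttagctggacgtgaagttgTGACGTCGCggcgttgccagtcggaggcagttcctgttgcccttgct
Psmb6: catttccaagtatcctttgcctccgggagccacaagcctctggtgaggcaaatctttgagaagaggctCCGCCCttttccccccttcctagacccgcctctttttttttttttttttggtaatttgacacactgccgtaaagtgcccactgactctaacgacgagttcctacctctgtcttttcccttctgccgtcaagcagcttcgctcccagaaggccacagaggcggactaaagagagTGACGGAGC

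The RefSeq promoter table held 31 of the 37 listed genes, with windows of 300 bases from 250 before to 50 after the start, searched on both strands. Psmb1, Psmb2, Psmb7, Psmc3, Psmd3 and Psmd7 have no entry. TGACNNNGC occurred in 5 of the 31 genes (16.1%, against 14% of all 27025 genes in the table), namely Psmb5, Psmb6, Psmc6, Psmd12 and Psme4. Psmb5, Psmb6 and Psmd12 are among the stretches shown, which therefore overstate its share of the members. The leftmost base of the match, counted from the gene start, is at -47 in Psmb5, -9 in Psmb6, -7 in Psme4, -247 in Psmd12 and -227 in Psmc6. GGGCGG occurred in 20 of 31 genes (64.5%, against 38.2%), GCGTG, the core of the dioxin response element, in 17 (54.8%, against 35.2%), CCAAT, the NF-Y box, in 12 (38.7%, against 41.1%), and CACGTG, the E-box, in 2 (6.5%, against 8.1%). No motif contains another. The shares were not adjusted for the base composition of the windows. A match is a run of letters only, and no binding was measured here.

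Early in the course, a few members rose and none fell. In vehicle cells at 8 h, 5 of 36 members were higher than in untreated cells (11.2% of all genes tested were called higher), and 0 were lower (13.4%). Psma6, an alpha-ring gene, rose by 0.42 ± 0.07 (adjusted p = 2.22e-05), and its level was 13.93, 13.98, 14.14 and 13.96 on the untreated arrays and 14.40, 14.49, 14.41 and 14.37 on the vehicle 8 h arrays. All 4 vehicle arrays lay above all 4 untreated arrays, as for 9.33% of all genes tested. The other 4 were regulatory particle genes: the ATPase Psmc6 (0.32 ± 0.06), Psmd7 (0.39 ± 0.07), Psmd14 (0.18 ± 0.06), which encodes the enzyme that cuts ubiquitin chains off the substrate, and Psmd12 (0.17 ± 0.06). Without an adjustment, limma gave 7 members higher and 1 lower at p under 0.05. The count was 8 with the replicate block, and 3 without replicate 3, without replicate 4 or without the 4 arrays that stood apart.

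At 12 h, 8 members were higher (background 11%) and 0 lower (background 13.8%), with 11 and 0 at an unadjusted p under 0.05. They were Psma4, Psma6, Psmc6, Psmd1, Psmd6, Psmd7, Psmd12 and Psme3, the nuclear activator, which rose by 0.36 ± 0.11. Psma6 again had the largest rise (0.47 ± 0.07, adjusted p = 2.99e-06). Psmc6 was the single member called at this time in each of the 13 alternative settings tried (0.38 ± 0.06). Without replicates 1, 2, 3 or 4 the count was 5, 4, 4 and 5. Psmd6 and Psme3 were not called without the 4 arrays that stood apart, where the count was 6. At 24 h, 3 members were higher (background 9.38%) and 0 lower (background 10.4%), with 12 and 0 at an unadjusted p under 0.05. These 3 were Psmc6 (0.36 ± 0.06) and the beta-ring genes Psmb3 (0.26 ± 0.07) and Psmb4 (0.14 ± 0.05). With the replicate block and on the values as deposited, 7 members were called at 24 h, and 1 without replicate 3.

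At 36 h, 5 of 36 members were higher (background 15.4%) and 4 lower (background 15.9%), so neither share exceeded the background. Psmb3, Psmc6, Psmd8, Psmd10 and Psme4 were higher, and Psmc5, Psmd6, Psmd7 and Psmd12 were lower, by -0.29 ± 0.09, -0.20 ± 0.07, -0.25 ± 0.07 and -0.16 ± 0.06. All 4 members that were lower belong to the regulatory particle, which holds 19 of the 36 members. The count rested on single days, with 2 members called without replicate 2, 2 without replicate 3 and 5 without the 4 arrays that stood apart, against 15 with the replicate block. On the values as deposited the split was 8 higher and 2 lower.

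By 48 h, 21 of 36 members differed from untreated cells, 10 higher (background 23.4%) and 11 lower (background 20.5%). Most of the falls lay in the regulatory particle. Of 19 regulatory particle genes, 10 fell and 4 rose, with a median change of -0.19. Of 14 core genes, 1 fell and 4 rose, with a median change of 0.07. For the core this split was 2 higher and 2 lower on the values as deposited, 1 and 1 without replicate 3, 4 and 2 with the replicate block, and 0 and 0 with only the arrays compared. For the regulatory particle it was 3 higher and 10 lower, 2 and 6, 4 and 11, and 1 and 6 in the same settings. The median of all genes tested was 0.02. The 10 regulatory particle genes that fell were Psmc1, Psmc2, Psmc5, Psmd1, Psmd2, Psmd3, Psmd5, Psmd6, Psmd7 and Psmd12, and the core gene was Psma7 (-0.17 ± 0.07). The 19 regulatory particle genes include Psmd5, which fell, and Psmd10, which rose, and both encode assembly chaperones. Of the 21 calls, 7 were made in all 13 alternative settings, those of Psmc5, Psmd1, Psmd5, Psmd6, Psmd8, Psmd12 and Psme1. Without replicate 3 the count over all members was 12, and with only the arrays compared it was 8. On the values as deposited the split was 7 higher and 12 lower. Without the 4 arrays that stood apart, 9 regulatory particle genes fell and 3 rose, and their median change was -0.27. The summed signal of the B cell markers was between 23855 and 27499 on the untreated arrays and between 16687 and 18611 on the vehicle 48 h arrays, and its part in these changes was not tested.

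**Figure D1:**
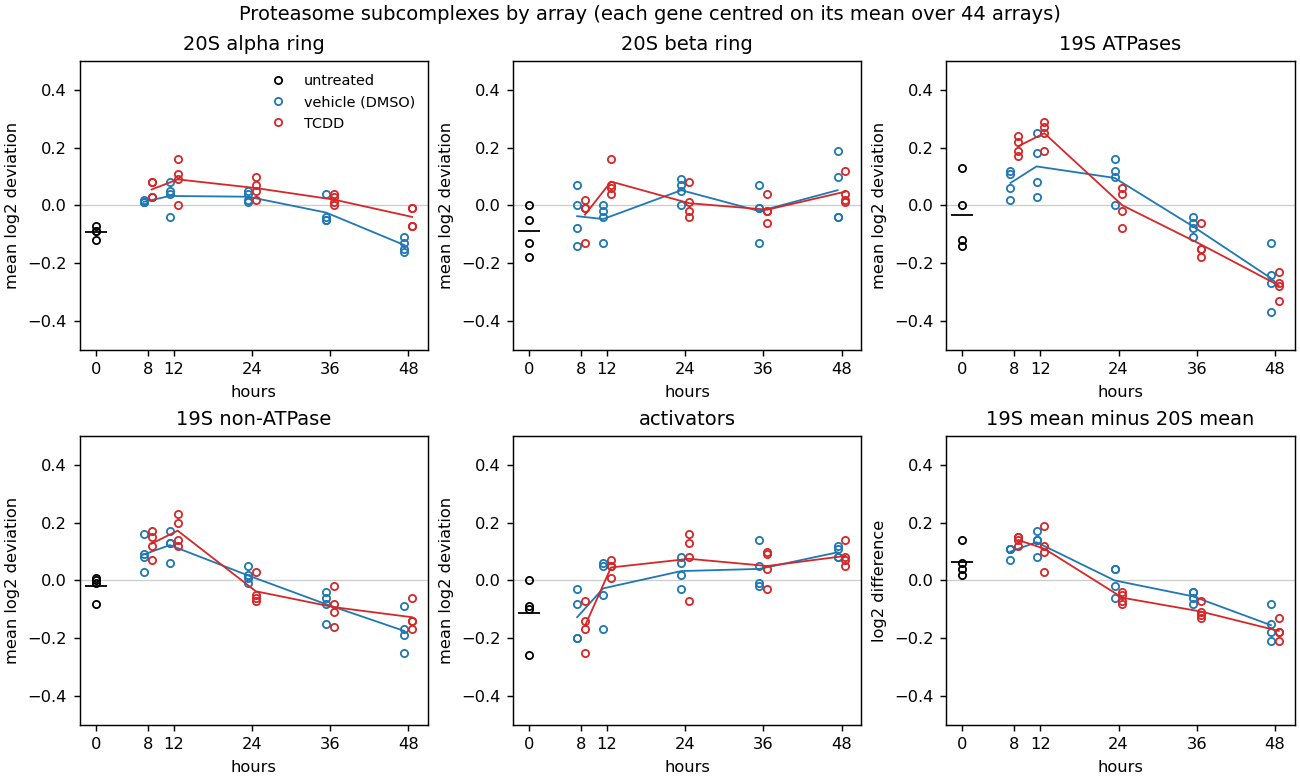
Mean log2 deviation of each subcomplex on each of the 44 arrays, every gene first centred on its mean over all arrays, against hours, with circles for arrays and lines for group means (a bar for untreated cells). The last panel plots the mean of the 19 regulatory particle genes minus the mean of the 14 core genes, which lay between 0.02 and 0.14 on the untreated arrays and between -0.21 and -0.08 on the vehicle 48 h arrays.

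The particle means were also taken array by array, each gene first centred on its mean over all arrays. The mean of the 19 regulatory particle genes minus the mean of the 14 core genes was between 0.02 and 0.14 on the untreated arrays, between 0.07 and 0.11 on the vehicle 8 h arrays, between 0.08 and 0.17 at 12 h, between -0.06 and 0.04 at 24 h, between -0.08 and -0.04 at 36 h, and between -0.21 and -0.08 at 48 h. The vehicle arrays of 36 and 48 h thus lay below all vehicle arrays of 8 and 12 h and below all untreated arrays. The regulatory particle mean itself was 0.12 ± 0.03 (SD, n = 4) at 12 h and -0.20 ± 0.07 at 48 h, while the core mean was -0.01 ± 0.03 and -0.04 ± 0.05. Within the core, the alpha ring was at -0.14 ± 0.02 and the beta ring at 0.05 ± 0.11 at 48 h, so the core mean joins parts that differ.

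Among the alpha-ring genes, whose products form the gate of the core, Psma7 was called at 48 h and the other 6 were not. Their changes were -0.10 for Psma1, -0.01 for Psma2, 0.07 for Psma3, -0.13 for Psma4, -0.04 for Psma5 and 0.08 for Psma6. Psma6, after its early rise, had levels of 14.42 ± 0.05 (SD, n = 4) at 8 h and 14.08 ± 0.10 at 48 h. Against vehicle 8 h, Psma4 (-0.23 ± 0.06), Psma6 (-0.34 ± 0.07) and Psma7 (-0.23 ± 0.07) were lower at 48 h.

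Of the beta-ring genes, 4 of 7 rose by 48 h, against 23.4% of all genes tested: Psmb1 (0.29 ± 0.06), Psmb3 (0.22 ± 0.07), Psmb4 (0.16 ± 0.05) and Psmb6 (0.15 ± 0.05). Psmb6 encodes the caspase-like proteolytic subunit. The genes of the other proteolytic subunits were not called, with 0.13 ± 0.09 for Psmb5, the chymotrypsin-like subunit, and 0.16 ± 0.13 for Psmb7, the trypsin-like subunit. Psmb2, of a subunit without a proteolytic site, was at -0.16 and not called (adjusted p = 0.306). Psmb1 was at 12.95, 12.97, 12.93 and 12.82 on the untreated arrays and at 13.20, 13.24, 13.28 and 13.11 on the vehicle 48 h arrays, with no overlap. It was also called between 8 and 48 h (0.30 ± 0.06). Over all genes tested, 17.3% had every vehicle 48 h array above every untreated array and 14.6% had every one below. Among the members these were 6 and 9. The beta-ring count rested on replicate 3, without which 1 gene was called higher, and it was 2 on the values as deposited or with the mean of the probe sets and 0 with only the arrays compared.

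Of the ATPase genes, which encode the unfolding ring, Psmc5 fell most by 48 h, by -0.58 ± 0.09 (adjusted p = 3.37e-06). Its level was 12.57, 12.75, 12.94 and 13.04 on the untreated arrays and 12.03, 12.41, 12.33 and 12.20 on the vehicle 48 h arrays. Every vehicle 48 h array lay below every untreated array. Psmc2 (-0.32 ± 0.09) and Psmc1 (-0.18 ± 0.06) were lower too. The Psmc1 call was lost without replicate 1 and without replicate 3, and the mean of its probe sets was higher (0.08). That mean includes 1439392_x_at, a dim probe set below the filter, with a mean level of 4.68 against 12.47 for the lead. The Psmc2 call was lost without replicate 3 and with the mean of its probe sets. Psmc4 spread most between replicates, from 12.19 to 13.35 on the untreated arrays, and its change of -0.44 ± 0.22 was not called (adjusted p = 0.0997), while its other probe set, 1416291_at, was lower by -0.37 (adjusted p = 0.00262). Psmc3 was at -0.04 ± 0.10.

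Psmc6 is the ATPase gene whose lead probe set, 1417771_a_at, was higher than in untreated cells at each of the 5 times, by 0.25 ± 0.06 at 48 h. Its probe sets disagreed. The probe set 1417770_s_at was lower by -0.47 at 48 h (adjusted p = 0.00667), and 1417769_at was at -0.70 (adjusted p = 0.127). The mean of its probe sets was -0.31 and was not called (adjusted p = 0.123).

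The largest falls were those of Psmd6 and Psmd7, which encode lid subunits of the regulatory particle, the part that holds the ubiquitin-removing enzyme. Psmd6 (probe set 1423697_at) had normalised signals of 11327, 11087, 10778 and 11260 on the untreated arrays, 11935, 11537, 12346 and 11840 on the vehicle 8 h arrays, and 7371, 7015, 7240 and 6780 on the vehicle 48 h arrays. No 48 h array reached the lowest untreated or 8 h array (14.6% and 17.5% of all genes tested lay wholly below these). The change from untreated was -0.65 ± 0.07 (adjusted p = 3.74e-10), a 1.56-fold fall, and it was called in all 13 alternative settings. Its other probe set above the filter, 1423696_a_at, was lower by -0.73 (adjusted p = 0.000458).

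Psmd7 (probe set 1451056_at), the partner of the Psmd14 enzyme, had normalised signals of 4890, 5266, 4865 and 5350 on the untreated arrays, 6679, 6593, 6530 and 6830 at vehicle 8 h, and 2889, 3132, 3460 and 3773 at vehicle 48 h. The 3 sets of arrays did not overlap. Its mean levels were 12.32 in untreated cells and 12.70, 12.68, 12.31, 12.07 and 11.69 at 8, 12, 24, 36 and 48 h, so that it rose at first and then fell below where it began. The change from untreated at 48 h was -0.62 ± 0.07 (adjusted p = 1.19e-09). From 8 to 48 h it fell by 1.01 ± 0.07 on the log2 scale, a 2.01-fold difference and the largest among the members in vehicle cells.

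Psmd12, another lid gene, was higher at 8 and 12 h, lower at 36 h, and lower again by -0.48 ± 0.06 (adjusted p = 1.4e-08) at 48 h. Psmd3, a lid gene with a wide spread between replicates, was lower by -0.52 ± 0.19, a call made in 9 of the 13 alternative settings. The genes of the base scaffold, Psmd1 (-0.38 ± 0.07) and Psmd2 (-0.15 ± 0.06), fell, as did Psmd5 (-0.41 ± 0.08), whose product is an assembly chaperone of the base. The Psmd2 call was made in 4 of the 13 alternative settings. Psmd4, which encodes a ubiquitin receptor, was at 0.11 ± 0.07 and Psmd13 at -0.19 ± 0.11, neither called. Psmd11 was at 0.06 ± 0.08 on its lead probe set, 1437080_s_at, but 3 of its other probe sets were called lower, by -0.22, -0.45 and -0.49.

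Psmd8, a lid gene, moved the other way and had the largest rise of all members. The signals of its probe set 1423296_at were 7625, 8153, 6689 and 8551 on the untreated arrays and 12838, 10904, 14602 and 11935 on the vehicle 48 h arrays. All vehicle 48 h arrays lay above all untreated ones. The change was 0.69 ± 0.08 (adjusted p = 8.52e-09), a 1.62-fold rise, and was called in all 13 alternative settings.

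Psmd10, which encodes gankyrin, an assembly chaperone of the base, had levels of 11.09, 10.92, 10.39 and 10.90 on the untreated arrays and 11.29, 10.91, 11.53 and 11.17 on the vehicle 48 h arrays. The groups overlapped, and the change of 0.40 ± 0.12 (adjusted p = 0.00722) was not called without replicate 3, whose untreated array was the lowest. Psmd14, the gene of the ubiquitin-removing enzyme, was higher by 0.15 ± 0.06, a call made in 5 of the 13 alternative settings.

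**Figure D2:**
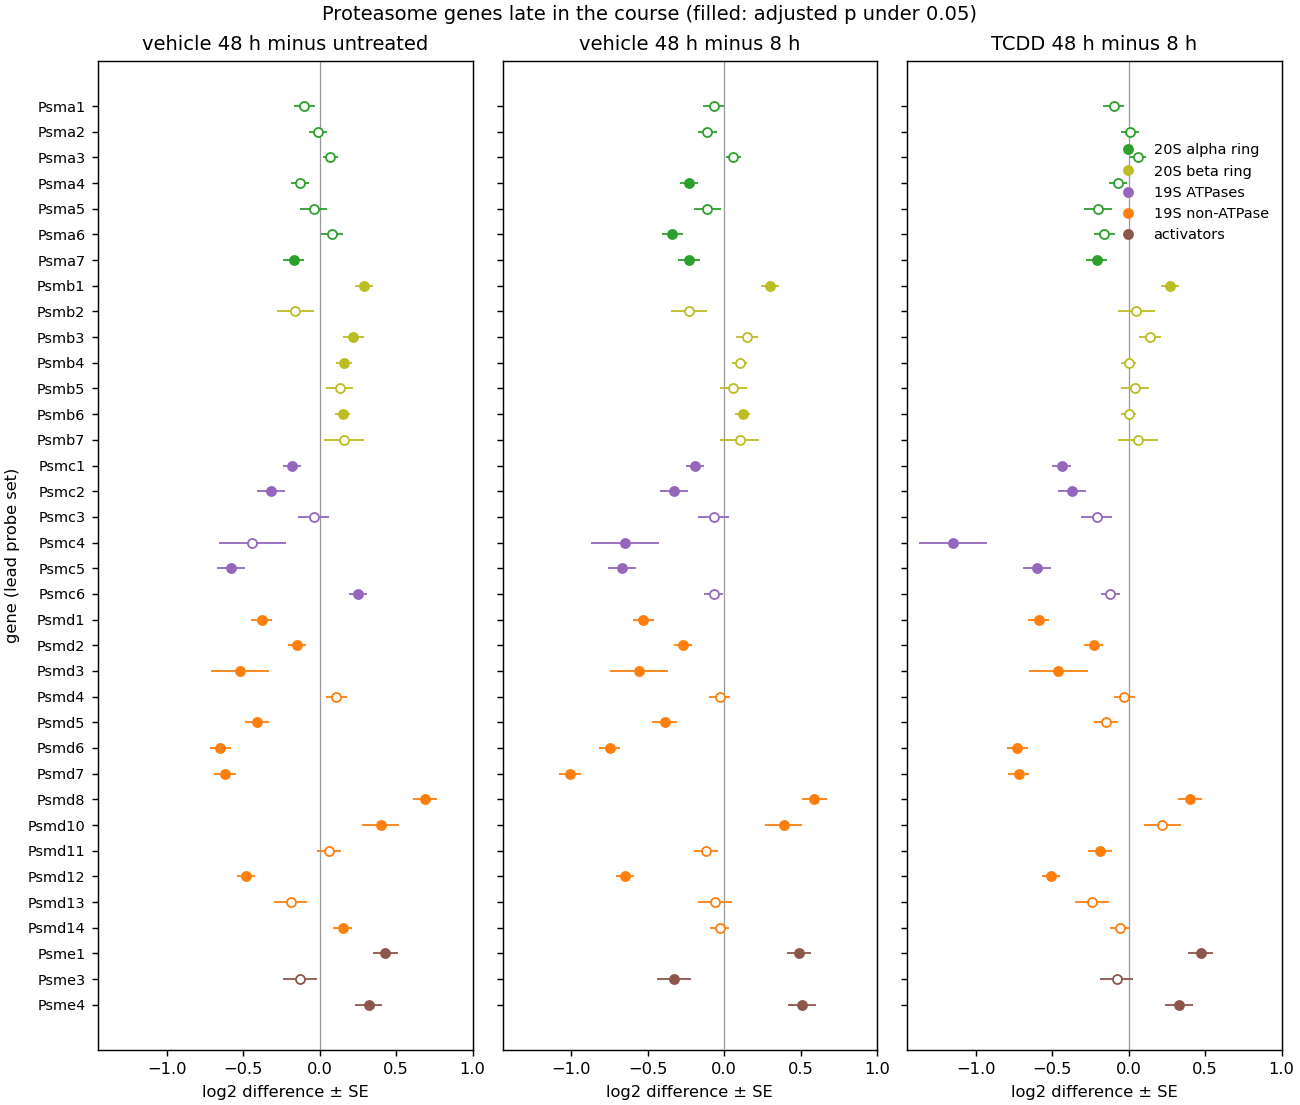
Log2 difference ± SE of each of the 36 members on its lead probe set, for vehicle 48 h minus untreated, vehicle 48 h minus vehicle 8 h and TCDD 48 h minus TCDD 8 h, with filled points for an adjusted p under 0.05 and colours for the subcomplexes. Most filled points among the ATPase and other regulatory particle genes lie left of 0, with Psmd8 at 0.69, 0.59 and 0.40 on the right.

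Both Psme1 and Psme4 of the 3 activators rose late. Psme1, which encodes a subunit of the cap linked to antigen processing, had levels of 13.35, 13.61, 13.68 and 13.82 on the untreated arrays and 14.09, 14.10, 14.08 and 13.92 on the vehicle 48 h arrays. Every vehicle 48 h array exceeded every untreated array, and the change was 0.43 ± 0.08 (adjusted p = 4.87e-05). Psme4, the gene of a single-chain activator, was at 11.28, 11.32, 11.54 and 11.41 in untreated cells and at 11.78, 11.84, 11.53 and 11.67 at 48 h, so that 1 vehicle array lay just below the highest untreated array. Its change was 0.32 ± 0.09 (adjusted p = 0.00517), and 2 of its other probe sets were higher by 0.38 and 0.29. A dim probe set of Psme4, 1446464_at, was at -0.32 and not called. The Psme4 call was lost with the mean of the probe sets, with only the arrays compared, without replicate 1 and without replicate 2. Psme3 was at -0.13 ± 0.11.

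The comparison of 48 h with 8 h uses no untreated array. In vehicle cells 6 members were higher (background 26.8%) and 15 lower (background 21.2%). Of the 19 regulatory particle genes 11 were lower and 2 higher, with a median change of -0.27 against 0.04 for all genes tested. Of the 14 core genes 3 were lower and 2 higher, with a median of -0.01. In TCDD cells, whose arrays are separate from the vehicle arrays, 4 members were higher (background 22%) and 12 lower (background 17.9%), and the regulatory particle again had 11 lower and 1 higher, with a median of -0.24. The core had 1 lower and 1 higher. With the replicate block the regulatory particle had 14 lower and 1 higher and the core 3 lower and 2 higher in TCDD cells, and without the arrays that stood apart 13 and 1, and 2 and 1. Without replicate 2 or without replicate 4 the regulatory particle had 8 lower.

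Of the members, 11 were lower late in both vehicle and TCDD cells: Psma7, Psmc1, Psmc2, Psmc4, Psmc5, Psmd1, Psmd2, Psmd3, Psmd6, Psmd7 and Psmd12. Psmb1, Psmd8, Psme1 and Psme4 were higher in both, and 0 members were called in opposite directions. The 11 lower genes make up 73.3% of the 15 lower in vehicle cells and 91.7% of the 12 lower in TCDD cells. Over all genes tested, 1747 were lower in both, 68.9% of those lower in vehicle cells and 81.6% of those lower in TCDD cells, so these shares of the members lie near the background. On the lead probe sets, Psmc4 had the largest change in TCDD cells (-1.15 ± 0.22, against -0.65 ± 0.22 in vehicle cells). Its other probe set, 1416291_at, was lower by -0.52 in TCDD cells (limma adjusted p = 6.8e-05) and by -0.63 in vehicle cells (2.06e-06). Psmd6 changed by -0.73 ± 0.07 in TCDD cells and by -0.75 ± 0.07 in vehicle cells. The difference of regulatory particle and core means lay between 0.12 and 0.15 on the TCDD 8 h arrays and between -0.21 and -0.13 on the TCDD 48 h arrays.

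**Figure D3:**
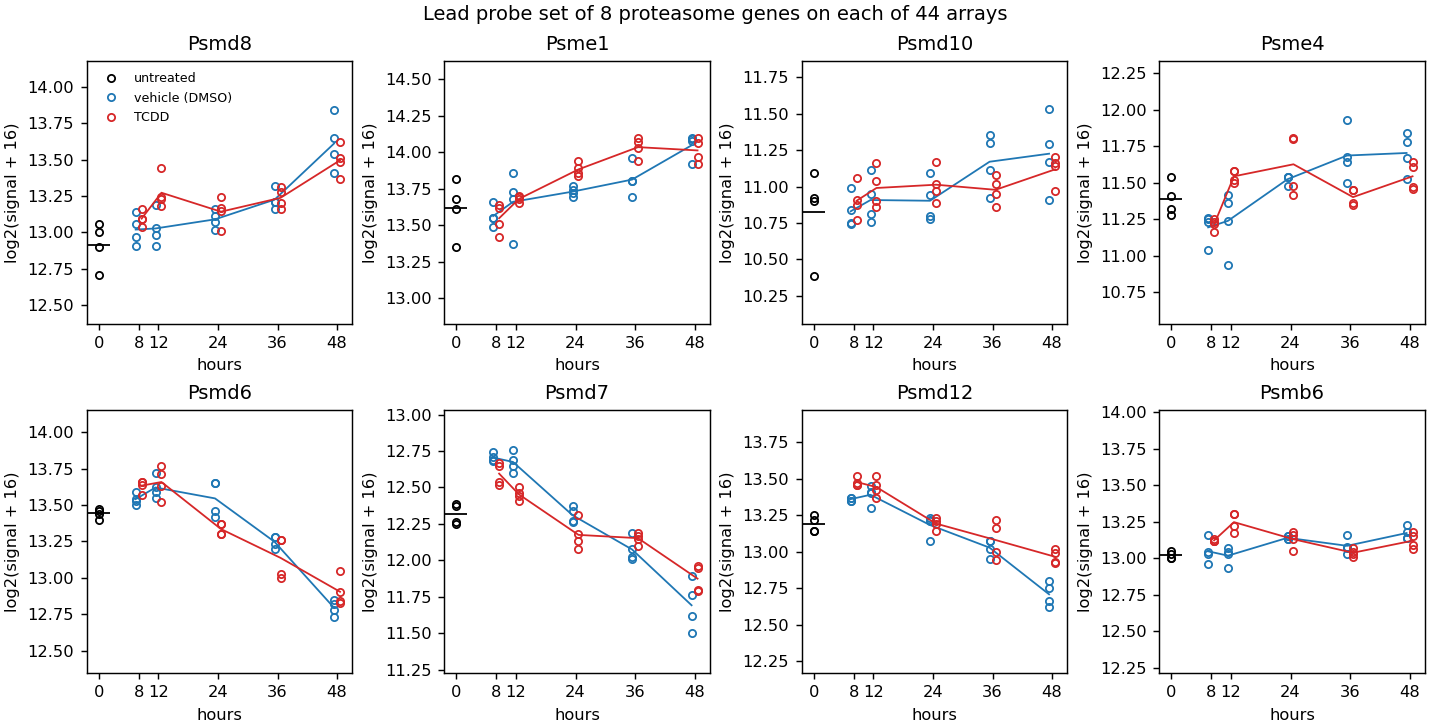
Level of the lead probe set of 8 members on each of 44 arrays, log2(signal + 16) against hours, each panel spanning 1.8 log2 units, with circles for arrays and lines for group means (a bar for untreated cells). Psmd6, Psmd7 and Psmd12 decline from 12 h to 48 h in vehicle and TCDD cells, whereas Psmd8 and Psme1 are highest late.

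The direct comparison of TCDD with vehicle at the same time called few members. Over the 5 times, 9 of 180 changes were called. At 8 h, 0 members were higher (background 2.73%) and 0 lower (background 1.41%), limma gave 2 at an unadjusted p under 0.05, and the lowest adjusted p was 0.295. The median SE of a member was 0.07 at each time. No difference below 0.21 in size was called at any of the 5 times, so smaller changes could have been missed. At 12 h, 3 were higher (background 6.07%) and 1 lower (background 3.15%), with 7 and 1 at an unadjusted p under 0.05, and 31 of 36 members had a positive difference, with a median of 0.08 against 0.01 for all genes tested. The mean of all members, each centred on its mean over all arrays, was 0.02, 0.09, 0.07 and 0.07 on the vehicle 12 h arrays and 0.12, 0.18, 0.13 and 0.13 on the TCDD 12 h arrays, which all lay higher. At 24 h, 0 were higher (background 4.80%) and 1 lower (background 2.79%), with 0 and 4 at an unadjusted p under 0.05. At 36 h, 1 was higher (background 3.50%) and 0 lower (background 2.41%), with 2 and 1 unadjusted. At 48 h, 3 were higher (background 4.30%) and 0 lower (background 4.55%), with 6 and 0 unadjusted. The lean to positive differences at 12 h did not last. Positive and negative differences numbered 26 and 10 at 8 h, 10 and 26 at 24 h, 19 and 17 at 36 h, and 18 and 18 at 48 h. The share of all genes with a positive difference was not counted.

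Psmb6, the caspase-like subunit gene, had the smallest adjusted p. At 12 h its normalised signals were 8338, 8579, 8406 and 7785 in vehicle cells and 9544, 10048, 9225 and 10099 in TCDD cells. The TCDD arrays all lay above the vehicle arrays (so did those of 8.09% of all genes tested). The difference was 0.23 ± 0.05 (limma adjusted p = 0.0013), higher in 4 of 4 same-day pairs. At the other times its difference lay between -0.05 and 0.07 and was not called.

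Psmd12 was higher with TCDD at 48 h. Its vehicle levels were 12.80, 12.66, 12.62 and 12.75 and its TCDD levels 13.02, 12.99, 12.93 and 12.92, without overlap (5.31% of all genes tested lay wholly above). The difference was 0.26 ± 0.06 (adjusted p = 0.00253), at a time when both groups lay below the untreated mean of 13.19. Psmd5 (0.31 ± 0.08, adjusted p = 0.00601) and Psma4 (0.21 ± 0.06, adjusted p = 0.0301) were higher at 48 h as well, each in 4 of 4 same-day pairs. Psma6 was higher at 36 h (0.23 ± 0.07, adjusted p = 0.0449).

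Psmd7 was lower with TCDD at 12 h, at 12.41, 12.50, 12.46 and 12.44 against 12.65, 12.60, 12.76 and 12.69 in vehicle cells. The groups did not overlap (5.13% of all genes tested lay wholly below), and the difference was -0.22 ± 0.07 (limma adjusted p = 0.0262). At 48 h its difference was 0.18 ± 0.07, not called without the replicate block and called with it (adjusted p = 0.019). Psmd6 was lower at 24 h, at 13.37, 13.37, 13.30 and 13.30 against 13.65, 13.65, 13.46 and 13.42. Each TCDD array lay below each vehicle array, by -0.21 ± 0.07 on average (limma adjusted p = 0.042). The same held for 7.29% of all genes tested.

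Psme4 was higher with TCDD at 12 h, at 11.58, 11.50, 11.58 and 11.52 against 11.36, 11.42, 11.24 and 10.94, by 0.31 ± 0.09 (adjusted p = 0.0308). At 36 h its difference was -0.29 ± 0.09, not called without the replicate block and called with it (adjusted p = 0.0437). Psmd2, the gene of a base scaffold subunit, was higher at 12 h (0.21 ± 0.06, adjusted p = 0.0246).

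The F test of whether the TCDD difference changes over time called 3 members (background 6.99%): Psmb6 (adjusted p = 0.02), Psmd7 (0.0147) and Psme4 (0.0177). Without replicates 1, 2, 3 or 4 it called 0, 0, 0 and 1, and with the replicate block 7. With the block, 8, 2, 3 and 5 members were called at 12, 24, 36 and 48 h, against 4, 1, 1 and 3 without it. The block added Psmb7 (0.27), Psmd8 (0.24), Psma7 (0.18) and Psmb4 (0.13) at 12 h, Psmb3 (-0.17) at 24 h, Psme1 (0.22) and Psme4 at 36 h, and Psma6 (0.21) and Psmd7 at 48 h. None of the 9 calls of TCDD against vehicle was made in every alternative setting. With a replicate left out, between 0 and 2 were called at 12 h, 0 at 24 h, between 0 and 1 at 36 h, and between 1 and 2 at 48 h. On the values as deposited the split was 1 higher and 1 lower at 12 h and 0 higher and 1 lower at 36 h. Csf1r and Adgre1 of the myeloid list were higher with TCDD at 12 h, by 1.88 ± 0.09 and 0.70 ± 0.20, and 3 of the 5 genes of that list were above the filter, Lyz2 and Itgam not. Its summed signal over the 5 times was between 561 and 1003 on vehicle arrays and between 1589 and 2390 on TCDD arrays. Its part in the differences between TCDD and vehicle was not tested.

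**Figure D4:**
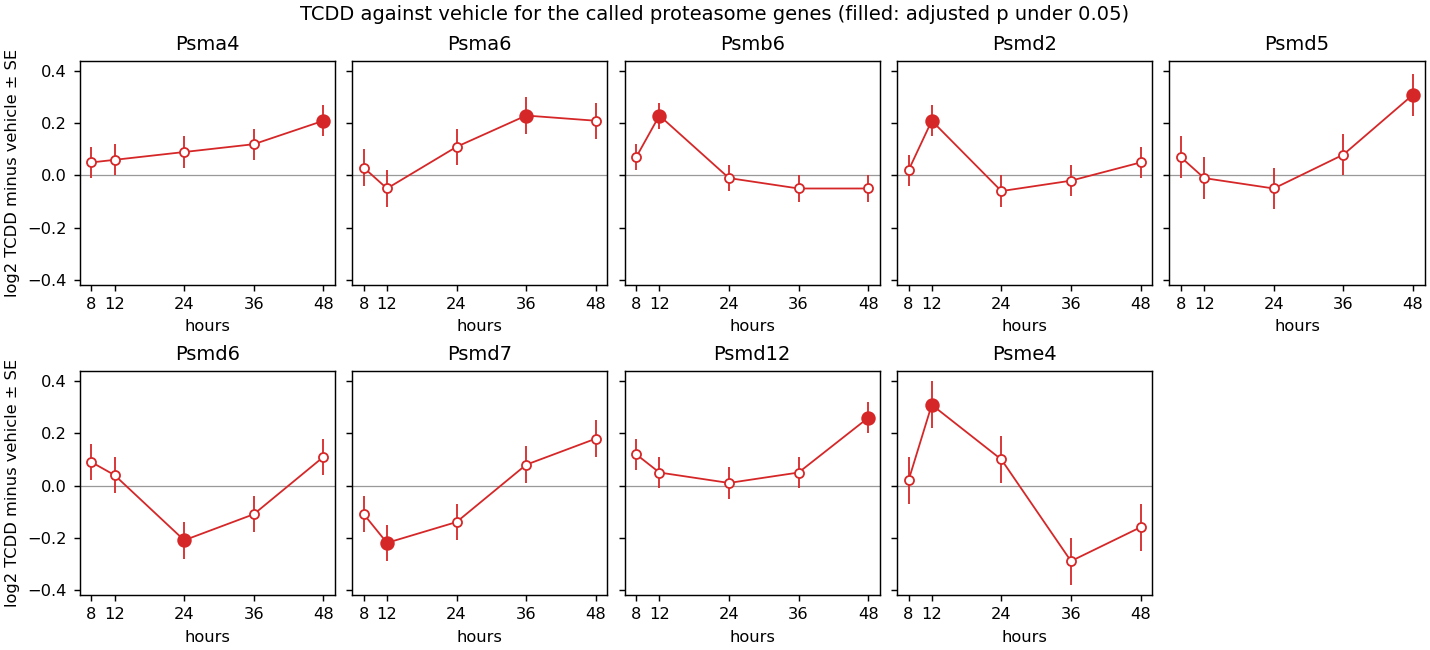
Log2 difference of TCDD and vehicle ± SE against hours for the 9 members called at any time, with filled points for an adjusted p under 0.05. Psmb6, Psmd2 and Psme4 are highest at 12 h, and Psma4, Psmd5 and Psmd12 at 48 h.

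Probe sets of 1 gene did not always move alike. Of 33 other probe sets above the filter, 18 had the sign of the lead probe set at 48 h and 15 the opposite one. Among the 17 with a mean level above 10, 12 had the same sign. Of 11 that were called, 7 had the sign of the lead and 4 the opposite, 1 of Psmc6 and 3 of Psmd11. The leads of Psmd11 and Psme4 have the suffix _s_at and those of Psma6 and Psmc2 the suffix _x_at, which in the array maker's naming mark probes that can match more than 1 transcript. For the 16 genes with 1 probe set no such comparison exists.

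**Figure D5:**
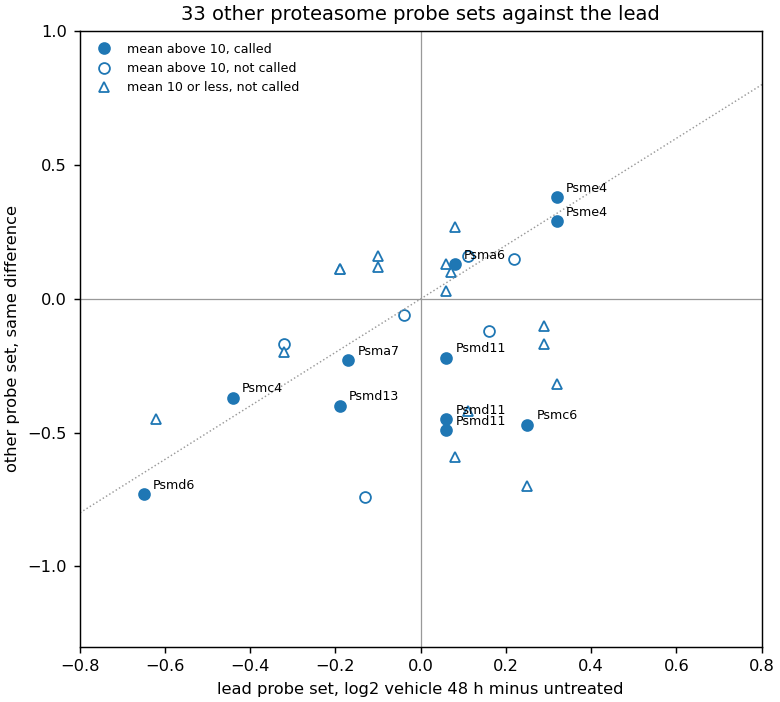
Log2 change from untreated to vehicle 48 h of the 33 other probe sets above the filter (vertical) against that of the lead probe set of the same gene (horizontal), with circles for probe sets with a mean level above 10, triangles for dimmer ones, and filled symbols for an adjusted p under 0.05. The filled points of Psmd11 and Psmc6 lie below 0 while their leads lie at 0.06 and 0.25.

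Genes around the constitutive proteasome were read from lists of their own, chosen with earlier results of these data known. All 3 inducible beta subunit genes, which replace proteolytic subunits in the immunoproteasome, were tested, and 2 were higher at 48 h than in untreated cells (23.4% of all genes tested) and 0 lower (20.5%), Psmb9 by 0.86 ± 0.08 and Psmb8 by 0.23 ± 0.10. Psmb10 was at -0.14 ± 0.13 there but was higher with TCDD at 24 h (0.40 ± 0.13) and 36 h (0.56 ± 0.13). Of 12 assembly chaperones and other proteasome factors, 2 were higher (23.4% of all genes tested) and 4 lower (20.5%) at 48 h. The largest changes were those of the chaperone gene Psmg3 (-0.64 ± 0.12), the proteasome-bound deubiquitinase genes Usp14 (-0.41 ± 0.11) and Uchl5 (-0.41 ± 0.09), and the chaperone gene Psmg4 (0.33 ± 0.11).

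On the list of proteasome regulators and related factors, all 6 genes tested were called at 48 h, 5 higher (23.4% of all genes tested) and 1 lower (20.5%). Because this list too was chosen with earlier results of these data known, its count cannot be weighed against these shares. Sel1l, a part of the complex that exports misfolded proteins from the endoplasmic reticulum, rose by 1.40 ± 0.10. Nfe2l1, the factor known to raise proteasome genes when proteasome activity is short, rose by 1.14 ± 0.19, and Ngly1, the enzyme that removes the sugars from that factor, by 0.83 ± 0.12. Akirin2, needed for import of proteasomes into the nucleus, rose by 0.49 ± 0.09. Nfe2l2, the single gene called lower, fell by 0.39 ± 0.13, and it was chosen after its value was seen. Of 7 tested genes of ubiquitin transfer and shuttling, 1 was higher (23.4% of all genes tested) and 2 lower (20.5%), with Ubqln4 at -0.48 ± 0.19, Nploc4 at -0.37, not called (adjusted p = 0.13), Uba6, a ubiquitin-activating enzyme, at 0.36 ± 0.08 and Vcp, an unfolding ATPase, at -0.31 ± 0.09.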

How the data were processed

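RNA of 44 cultures was hybridised to Affymetrix Mouse430_2 arrays, 1 culture per array. Each deposited value is an intensity, linear and without a log, from the authors' GCOS 1.0 software (per the submitters' processing notes). A trimmed mean of 500 was found on every array, and further settings are not given in the sources. Signal ranged from 0.0494 to 66978, and array medians from 45.2 to 99.2. Because the array medians of log2(value + 16) spanned 0.91, above a limit of 0.2, values were quantile normalised and turned into log2(value + 16). Of 45101 probe sets, 64 controls were left out. Names came from the platform annotation: 34945 probe sets have 1 symbol, 932 several and 9160 none, and 34741 were found by Entrez number in RefSeq genes of GRCm38.p6, with 0 symbols changed. Each of 18193 genes was read on the probe set with the highest mean, and 11969 genes with a group mean above the median of all values (6.21) were tested. With 4 arrays per group, the number of arrays limits the precision.

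Tests were run in limma 3.58.1 (R 4.3.3): 1 fit of 11 group means with eBayes, two-sided. P-values were adjusted by Benjamini-Hochberg over all genes tested in a comparison, with a threshold of 0.05. The change of the TCDD difference over time was an F test of 4 contrasts. The script was tested on simulated data. The members and gene lists were chosen with earlier results of these data known, and TCDD 48 h against TCDD 8 h was added after seeing the data. All members are named, with values on every array for the 4 largest rises and 2 largest falls at 48 h and for the 2 members per direction with the smallest adjusted p for TCDD; the array values of Psma6, Psmb1, Psmc5 and Psme4 under TCDD were added after seeing them. Other lists give up to 4 genes by size of change at 48 h, except Nfe2l2, added after seeing its value.

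Per the labels' design text, each replicate was treated and harvested on its own day, and numbers are taken to pair arrays across groups. As a check, deviations from the group mean were correlated between arrays. The median r was 0.176 where the number was shared and -0.066 elsewhere, and 18 of the 20 same-time pairs (TCDD with vehicle) exceeded 0.1. The fit without the day is the main one, and values with the replicate block stand beside results whose number of calls it shifts more than 1.5-fold, or whose call for TCDD it changes. Alternatives were the values as deposited, no filter, pseudocounts of 1 and 64, the block, only the arrays compared, all probe sets in 1 fit, averaging a gene's probe sets, leaving out each replicate, and leaving out 4 arrays that stood apart. Figures were drawn with matplotlib 3.10.9.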

Additional observations from a re-analysis of the deposited data

Results flagged for a closer look

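In 5 groups, 1 array lay far from the other 3 for a gene among the 8 examined. The measure was its gap to the nearest array over the range of the group, past Dixon's critical value for 4 arrays. Psma6, Psmb1 and Psmc5, whose array values were added later, were not examined. For Psme4 this share was 0.9 at vehicle 8 h, where replicate 2 was low, and 0.869 at vehicle 24 h, where replicate 2 was low. For Psme1 it was 0.9 at vehicle 48 h, where replicate 4 was low. For Psmd6 it was 0.835 at TCDD 8 h, where replicate 2 was low. For Psmd12 it was 0.846 at vehicle 24 h, where replicate 3 was low. The mean of the alpha-ring genes had a share of 0.901 at vehicle 36 h, where replicate 2 was high. Chance flags about 1 in 20 groups, and 6 of the 143 groups examined were flagged, over 8 genes and 5 subcomplex means.

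Limma's F test over the 5 times called a change of the TCDD difference for Psmb6 (adjusted p = 0.02), Psmd7 (adjusted p = 0.0147) and Psme4 (adjusted p = 0.0177). It called 6.99% of all genes tested. Leaving out any replicate lost most or all of these member calls, as given above.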

How the results depend on the processing

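Of 92 calls of single members in the comparisons, all 92 kept direction and call with the replicate block and with a pseudocount of 1, 90 with a pseudocount of 64, 80 on the values as deposited, 76 without the 4 arrays that stood apart, and 40 with only the arrays compared, where fewer arrays estimate the spread. The mean of the probe sets kept 60 and turned 3. These were Psmc6 at 48 h against untreated (-0.31), and Psmc1 there (0.08) and at vehicle 48 h against 8 h (0.10). For Psmc1 that mean includes a probe set below the filter, with a mean level of 4.68. The cause was not tested. Numbers of members called moved by over 1.5 times as follows. In vehicle cells against untreated, the count of 5 at 8 h was 3 with no filter, 8 with the replicate block, 2 with only the arrays compared and 3 without the 4 arrays; the 8 at 12 h was 3 with only the arrays compared and 5 with the mean of the probe sets; the 3 at 24 h was 7 as deposited, 7 with the block and 1 with only the arrays compared; the 9 at 36 h was 15 with the block, 0 with only the arrays compared and 5 without the 4 arrays; and the 21 at 48 h was 8 with only the arrays compared. The 21 of vehicle 48 h against 8 h was 13 with only the arrays compared. For TCDD against vehicle with only the arrays compared it was 0 at 12, 24, 36 and 48 h. With no filter it was 1 at 12 h and 0 at 24 and 36 h, with all probe sets 0 at 24 and 36 h, and with the mean of the probe sets 1 at 12 h, 0 at 24 and 36 h, and 1 for the interaction. As deposited it was 2 at 12 h. With the replicate block it was 8, 2, 3 and 5 at 12, 24, 36 and 48 h and 7 for the interaction, and without the 4 arrays 2 at 36 h. Leaving out 1 replicate gave from 3 to 4, from 4 to 5, from 1 to 2, from 2 to 9 and from 12 to 17 for vehicle at 8, 12, 24, 36 and 48 h, from 17 to 19 for vehicle 48 h against 8 h, from 12 to 15 for TCDD 48 h against 8 h, from 0 to 2 at 12 h for TCDD against vehicle, 0 at 24 h, 0 to 1 at 36 h, 1 to 2 at 48 h, and 0 to 1 for the interaction. In all settings, more regulatory particle genes fell than rose at 48 h, with medians between -0.29 and -0.14 against untreated. The scaling as deposited moved the median of all genes by under 0.1.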
